A study of Mus musculus with 6 samples.

Results

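Cytochrome P450 enzymes of families 1 to 3 are the haem-containing monooxygenases of the endoplasmic reticulum with which the liver oxidises drugs, toxicants, steroids, bile acids and fatty acids. All genes whose mouse symbol places them in these families, pseudogenes left out, were taken from the count table, which gave 42 of its 12027 rows. The annotation names 61 such genes, and the other 19 are not analysed here. Every one of the 42 passed the filter on low counts. Of these, 35 reached 10 CPM (counts scaled to a common library size) in at least 1 library and 7 did not (Cyp1a1, Cyp2d11, Cyp2d12, Cyp2d34, Cyp2g1, Cyp2s1 and Cyp2t4). By subfamily they were 13 Cyp2c, 8 Cyp2d, 4 Cyp2a, 4 Cyp3a, 3 Cyp2j and 2 Cyp1a genes, and 1 gene each of Cyp2b, Cyp2e, Cyp2f, Cyp2g, Cyp2r, Cyp2s, Cyp2t and Cyp2u.

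The series measured polyA RNA of regenerating mouse liver after partial hepatectomy. OGT adds a single sugar, O-GlcNAc, to proteins inside the cell, and OGA takes it off again. There were 6 groups with 1 library each: OGA-KO (OGA-/-) and its control (OGAfl/fl) at 14 and at 28 days, and OGT-KO (OGT-/y) and its control (OGTfl/y) at 28 days. OGT libraries of day 14 were not analysed here. All mice were male C57BL/6 mice of 8 weeks, the deletions were specific to hepatocytes, and each library pooled the RNA of 3 mice and was run on 2 lanes. The driver of the recombinase and the hour at which tissue was taken are not given in the sources used here, and whole liver was sampled, so the other liver cells keep the gene.

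With 1 pooled library in each group there is no spread between replicates. Ratios between a pair of libraries are therefore given as log2 ratios of CPM (effective library sizes by the TMM method, prior count 2) with 95% counting intervals, which cover counting error only, and a gene is described as at least 2-fold higher or lower when it also reached 1 CPM in the higher library. A gene is said to rise or fall only where edgeR's quasi-likelihood test, fitted over all genes and all 6 libraries, gave a Benjamini-Hochberg adjusted p under 0.05. That test has 1 residual degree of freedom, which comes from how the OGA-KO effect changed from day 14 to day 28. Its use for OGT assumes a like variability in both lines. A fit without the term for mouse line, given as a check, sets OGT-KO liver against controls of both lines. Its effects differ too: for Cyp2a12 edgeR gave a log2 effect of -1.51 with and -2.34 without the line term. For Cyp2b10 these were -1.54 and -1.10. A call lost in that fit is thus not the same comparison failing. Levels are written as control then knockout, first for the OGA pair at day 14, then the OGA pair at day 28, then the OGT pair.

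Library totals ran from 20433100 to 29327722 counts, so 3 counts corresponded to 0.107 to 0.13 CPM. Oga had 1525 and 282, 1760 and 317, and 1400 and 1023 counts, and Ogt had 1798 and 2051, 2021 and 1964, and 1339 and 1205 counts. Oga counts thus show the OGA deletion at both times, but Ogt counts do not by themselves show that of OGT: Ogt was 1.34-fold lower in the library labelled OGT-KO (log2 ratio -0.43; edgeR adjusted p = 0.01436), by -0.06 with library totals, and did not pass without the line term or by DESeq2 (adjusted p = 0.1005 and 0.2397). Which exons are deleted is not given in the sources used here, and OGT-KO liver means throughout the library labelled so. The OGT-KO library stood apart, with a TMM factor of 1.37 against 0.90 to 1.06 elsewhere. A list of 10 hepatocyte markers, among them Alb, summed to 88608 to 97671 CPM in the OGA libraries, 81367 CPM in the OGT control and 53379 CPM in OGT-KO liver. The markers of the labelled tissue were thus present in all 6. In OGT-KO liver 8 of the 10 fell, where 26.6% of all genes fell, with a median log2 ratio of -1.07. By size 5 were at least 2-fold lower, against 11.7% of all genes. In OGT-KO liver, relative to its control, 10 stellate cell and fibroblast markers summed to 2407 against 284 CPM. In the same pair 10 Kupffer cell and macrophage markers summed to 1113 against 337 CPM. The sum of 7 cholangiocyte markers was 495 against 101 CPM, whereas 9 endothelial markers summed to 176 against 201 CPM. In bulk tissue, fewer hepatocytes and less P450 RNA per hepatocyte cannot be told apart.

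P450 genes are switched on in hepatocytes by factors such as HNF4A and C/EBP, and many are raised further by nuclear receptors that sense foreign compounds: CAR (gene Nr1i3) for the Cyp2b and several Cyp2c genes, PXR (gene Nr1i2) for Cyp3a, and the aryl hydrocarbon receptor AHR for Cyp1a. Several lie on the central side of the liver lobule, and some differ between males and females through the pattern of growth hormone release. Many are recent tandem copies, so that reads of one copy can match another. The pair on which several results turn, Cyp2a4 and Cyp2a5, has coding sequences 98.45% identical, with 23 differing bases in 1485. Coding bases 550 to 669, the stretch shown because differences are frequent there, hold 6 of them, in capitals (GENCODE M21 transcripts, counted from the A of the start codon):
Cyp2a4: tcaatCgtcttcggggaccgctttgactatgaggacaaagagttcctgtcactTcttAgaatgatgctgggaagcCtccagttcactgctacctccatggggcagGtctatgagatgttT
Cyp2a5: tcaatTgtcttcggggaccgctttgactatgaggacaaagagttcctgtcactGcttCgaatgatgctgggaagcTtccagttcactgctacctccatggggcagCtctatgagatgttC

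The sequences just upstream are shown for the genes with the lowest and highest ratios in OGT-KO liver among those at 10 CPM or more (Cyp1a2 and Cyp2j5, Cyp2c39 and Cyp2a4), and for Cyp2a5 as the near copy of Cyp2a4. Each runs from 250 bases before to 50 bases after the annotated start (RefSeq, GRCm38.p6). Capitals mark matches to the searched letters TATAAA (a core promoter element), TTGCNNAA (bound by C/EBP proteins), TTATGNAA (bound by DBP and its relatives), CAAAGTCCA (HNF4), and GCGTG (core of the AHR element), on either strand; an HNF1 site and a DR1 repeat for nuclear receptors were also searched. Cyp2c39 has a second annotated start whose window held none of these letters and is not printed.
Cyp1a2, chr9:57683606-57683905, minus strand: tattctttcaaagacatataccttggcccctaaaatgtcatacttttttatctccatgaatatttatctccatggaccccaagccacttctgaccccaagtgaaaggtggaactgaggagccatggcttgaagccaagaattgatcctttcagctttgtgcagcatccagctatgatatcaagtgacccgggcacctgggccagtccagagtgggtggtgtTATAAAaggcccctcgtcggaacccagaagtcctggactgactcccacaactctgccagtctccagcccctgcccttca
Cyp2j5, chr4:96664070-96664369, minus strand: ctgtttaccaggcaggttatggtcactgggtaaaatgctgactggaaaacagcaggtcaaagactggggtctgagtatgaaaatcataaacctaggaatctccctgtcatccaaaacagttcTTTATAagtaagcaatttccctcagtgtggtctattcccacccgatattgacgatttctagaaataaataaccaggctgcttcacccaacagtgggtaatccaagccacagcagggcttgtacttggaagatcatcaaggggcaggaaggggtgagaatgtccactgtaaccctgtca
Cyp2c39, chr19:39510572-39510871, plus strand: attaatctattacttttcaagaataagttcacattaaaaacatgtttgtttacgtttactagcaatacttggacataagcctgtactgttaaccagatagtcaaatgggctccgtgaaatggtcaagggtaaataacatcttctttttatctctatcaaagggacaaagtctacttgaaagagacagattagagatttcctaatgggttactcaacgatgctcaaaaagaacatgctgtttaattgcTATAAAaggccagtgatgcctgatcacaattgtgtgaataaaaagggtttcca
Cyp2a4, chr7:26306942-26307241, plus strand: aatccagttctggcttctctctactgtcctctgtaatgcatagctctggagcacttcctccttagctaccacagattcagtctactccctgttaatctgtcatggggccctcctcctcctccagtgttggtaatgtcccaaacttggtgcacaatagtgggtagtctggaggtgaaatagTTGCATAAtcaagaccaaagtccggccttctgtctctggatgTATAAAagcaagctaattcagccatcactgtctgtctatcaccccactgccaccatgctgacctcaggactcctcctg
Cyp2a5, chr7:26835089-26835388, plus strand: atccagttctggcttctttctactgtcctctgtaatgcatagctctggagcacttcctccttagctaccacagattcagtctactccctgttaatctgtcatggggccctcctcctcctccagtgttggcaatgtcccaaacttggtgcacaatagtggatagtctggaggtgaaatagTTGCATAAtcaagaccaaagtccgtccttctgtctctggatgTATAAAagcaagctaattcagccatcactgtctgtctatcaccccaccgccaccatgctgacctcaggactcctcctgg

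RefSeq promoters were matched for 35 of the 42 genes (37 windows; 32851 windows for all genes). TATAAA was found in 22 of the 37 windows, or 59.5%, against 13.62% of all windows. CAAAGTCCA was found in 16.2% of the P450 windows, those of Cyp3a11, Cyp2c40, Cyp2c67, Cyp2c68, Cyp2c69 and Cyp2c70, against 0.47% of all, and 4 of these 6 genes are near-identical copies. TTGCNNAA was found in 27.0% against 10.8%. GCGTG was less frequent than over all windows, at 13.5% against 32.39%. The HNF1 site and the DR1 repeat were found in none of the 37 windows, against 0.4% and 0.04% of all. TTATGNAA, added to the search after the values of Cyp2a4 and Cyp2a5 were seen, was found in 8.1% of the P450 windows, those of Cyp2a4, Cyp2a5 and Cyp2b10, against 3.38% of all; in Cyp2a4 and Cyp2a5 it is the same 8 bases that match TTGCNNAA, printed above in that orientation. The windows of Cyp2a4 and Cyp2a5 differ at 5 of 299 bases once shifted by 1 base. These matches are descriptions of the letters and not of binding.

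The P450 genes of families 1 to 3 as a whole fell in OGT-KO liver and stayed near control in OGA-KO liver. Their summed level was 26749 and 27045 CPM in the OGA pair at day 14, 29087 and 28798 CPM at day 28, and 27155 and 5508 CPM in the OGT pair. Their share of all counts was 2.47% to 2.63% in the 4 OGA libraries, 2.87% in the OGT control and 0.753% in OGT-KO liver. The summed level was thus 4.93-fold lower in OGT-KO liver (log2 ratio -2.30, counting interval -2.31 to -2.29).

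In OGT-KO liver 31 of the 42 genes fell, 3 rose (Cyp2a4, Cyp2c39 and Cyp2s1) and 8 did not pass edgeR's test. Over all genes tested, 26.6% fell and 26.1% rose, so falling calls made up 73.8% of the P450 genes against 26.6% overall. By size alone, 29 were at least 2-fold lower and 3 at least 2-fold higher, where 11.7% of all genes at 1 CPM or more were lower and 16.4% higher. The median log2 ratio was -1.60 against 0.00 over all genes. Scaled by library totals instead of TMM factors, which moves the median of all genes to 0.36, the P450 median was -1.27 and no member changed direction. The 26 P450 genes of other families with a row had a median of -1.30, with 15 fallen and 6 risen (8 and 3 without the line term); the difference between the sets was not tested. Without a term for the 2 mouse lines, 24 of the 34 calls were left, 23 fallen and 1 risen.

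**Figure D1:**
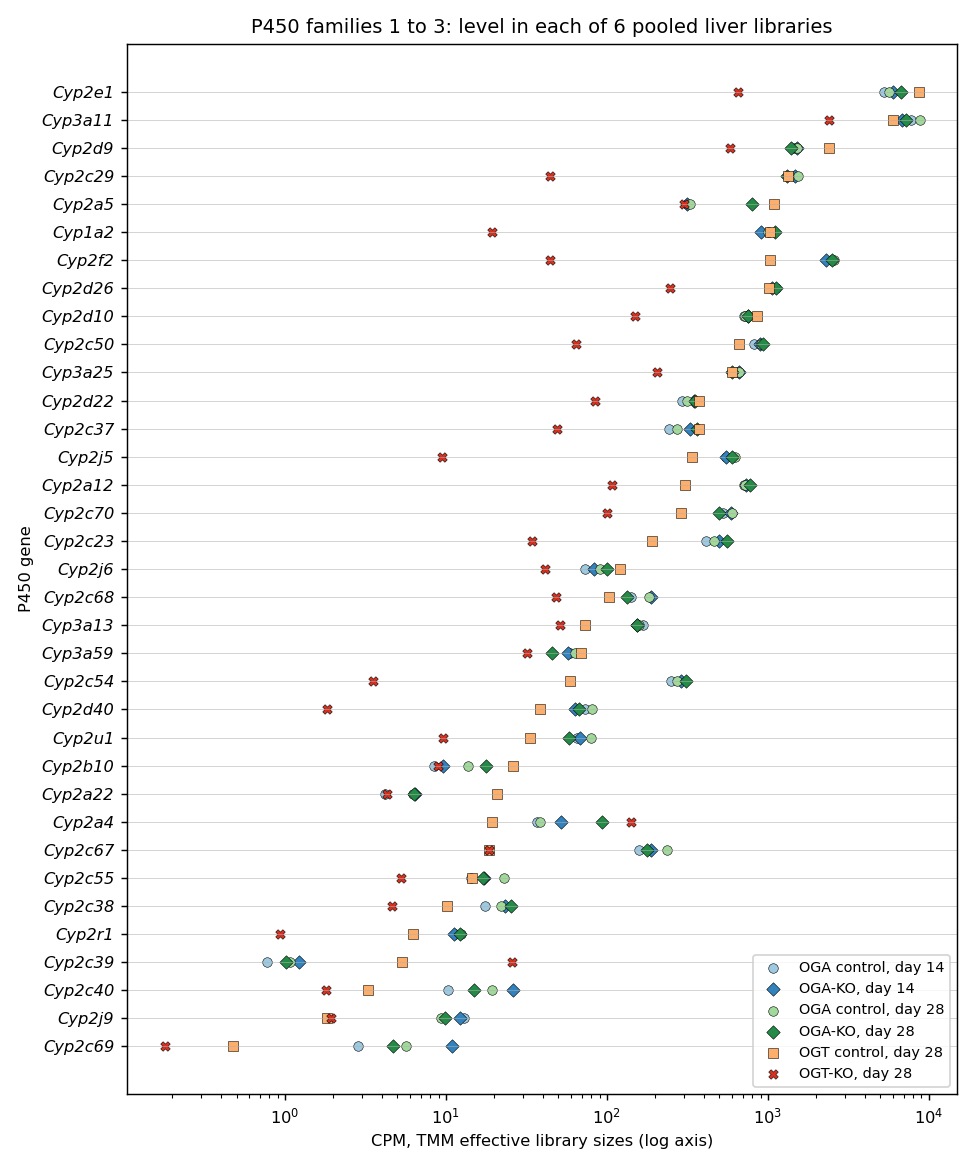
Level of the 35 P450 genes that reached 10 CPM, in CPM on a log axis, with 1 point for each of the 6 libraries and genes ordered by the OGT control. The OGT-KO library (red crosses) lies lowest for most genes, and Cyp2a4 and Cyp2c39 are exceptions in which it lies highest, at 141 and 25.9 CPM.

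**Figure D2:**
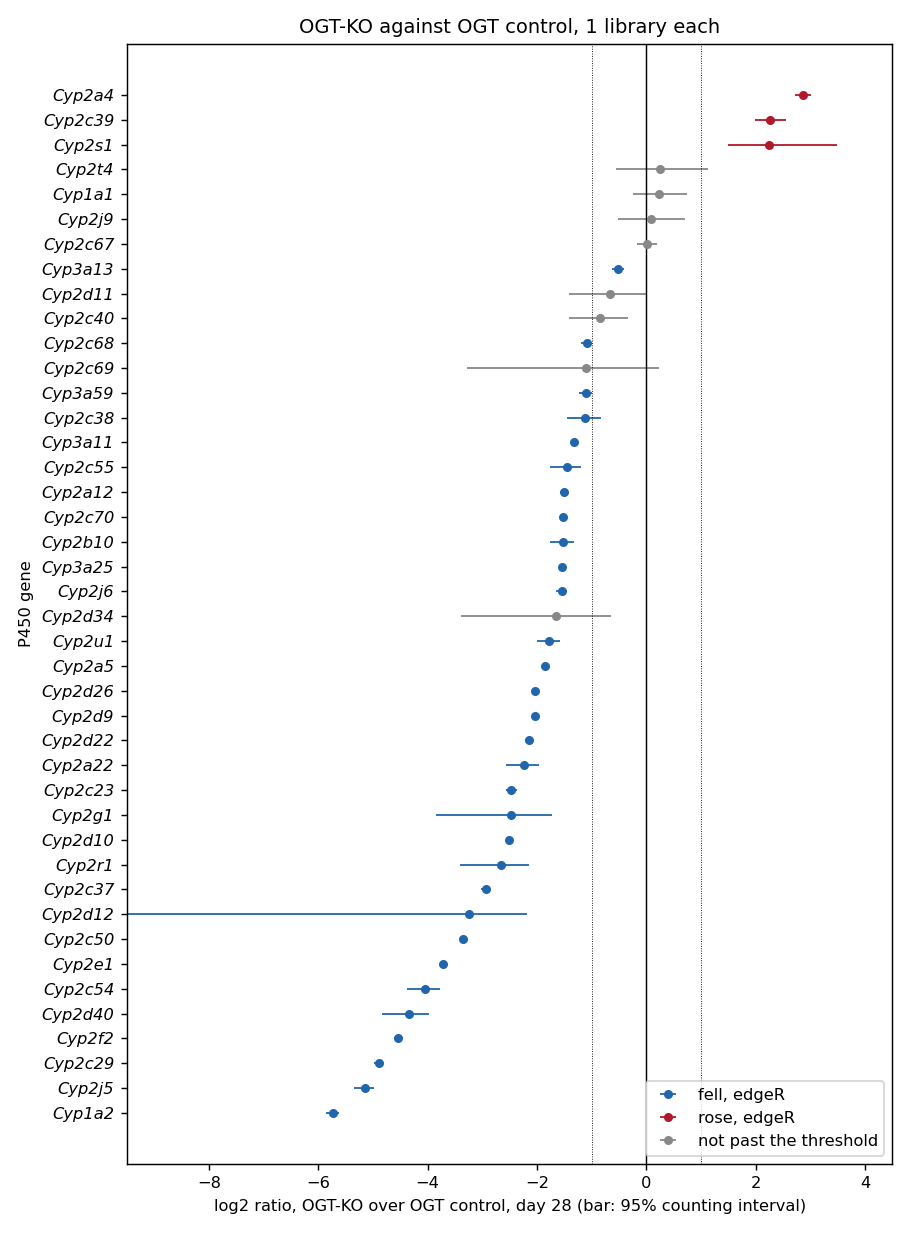
Log2 ratio of OGT-KO over OGT control at day 28 for all 42 genes, with 95% counting intervals and dotted lines at a 2-fold change. Colours give edgeR's calls: 31 genes fell, 3 rose and 8 did not pass; the ratios run from -5.73 for Cyp1a2 to 2.86 for Cyp2a4.

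Cyp1a2, which oxidises caffeine and aromatic amines and is a target of AHR, had the lowest ratio of the 42. Its level was 1013 and 901 CPM, then 998 and 1109 CPM, then 1035 and 19.4 CPM, a log2 ratio of -5.73 in OGT-KO liver (-5.87 to -5.62; edgeR adjusted p = 8.383e-05). The OGT control lay within the range of the OGA libraries, and OGT-KO liver lay 53.2-fold under its control. Cyp1a1, the classic AHR-induced gene, was counted at only 1.18 to 1.7 CPM in the OGA libraries, 2.64 CPM in the OGT control and 3.12 CPM in OGT-KO liver (edgeR adjusted p = 0.5894). Of the AHR-induced genes listed, Cyp1b1 had no row here.

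Cyp2e1, the enzyme of ethanol and paracetamol oxidation, stood at 5249 and 6024 CPM, 5631 and 6689 CPM, and 8628 and 653 CPM. The OGT control was the highest of the 6 libraries and OGT-KO liver the lowest, 13.2-fold under its control (log2 ratio -3.72; edgeR adjusted p = 8.304e-05). Cyp2f2, which oxidises naphthalene and in liver lies on the portal side of the lobule, was at 2457 and 2281 CPM, 2570 and 2486 CPM, and 1025 and 44.1 CPM. The OGT control was already below all OGA libraries, and OGT-KO liver was 23.2-fold lower still (log2 ratio -4.54; edgeR adjusted p = 8.304e-05).

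Among the Cyp2j genes, Cyp2j5, an arachidonic acid epoxygenase of liver and kidney, was at 550 and 552 CPM, 622 and 599 CPM, and 337 and 9.46 CPM. It fell 35.4-fold in OGT-KO liver (log2 ratio -5.15; edgeR adjusted p = 8.304e-05). Cyp2j6 was at 73.1 and 82.6 CPM, 90 and 99.5 CPM, and 121 and 41.3 CPM, and fell 2.92-fold. Cyp2j9 differed from both: it was at 12.9 and 12.3 CPM and at 9.36 and 9.83 CPM in the OGA pairs but at 1.82 and 1.93 CPM in the OGT pair, so that its ratio in OGT-KO liver was 0.08 on the log2 scale (-0.52 to 0.71), and it did not pass the test (edgeR adjusted p = 0.8143).

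The Cyp2c genes hydroxylate drugs, retinoids and arachidonic acid. Of 13, 9 fell, 1 rose and 3 did not pass the test in OGT-KO liver, and their sum went from 3052 to 400 CPM (log2 ratio -2.93). Falling calls made up 73.8% of all 42 P450 genes and 26.6% of all genes. Cyp2c29, induced through CAR, was at 1450 and 1471 CPM, 1536 and 1322 CPM, and 1328 and 44.6 CPM, a 29.7-fold fall (log2 ratio -4.89; edgeR adjusted p = 8.383e-05). The near-identical copies Cyp2c37, Cyp2c50 and Cyp2c54, which CAR also induces, followed it. Cyp2c50 was at 818 and 898 CPM, 909 and 935 CPM, and 661 and 64.6 CPM. Cyp2c37 was at 243 and 329 CPM, 274 and 365 CPM, and 373 and 48.7 CPM. Cyp2c54 was at 250 and 287 CPM, 272 and 310 CPM, and 59.2 and 3.51 CPM. In each of these 3 the OGT-KO library was the lowest of the 6, and their summed counts gave a log2 ratio of -3.23. The sum does not depend on how counted reads were split among them. It does depend on whether reads that match several copies were counted, which is not given.

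Cyp2c23, an arachidonic acid epoxygenase, was at 411 and 500 CPM, 461 and 559 CPM, and 189 and 34.1 CPM, a 5.54-fold fall. Cyp2c70, which makes the muricholic acids that mark rodent bile, was at 526 and 592 CPM, 597 and 498 CPM, and 287 and 100 CPM, a 2.87-fold fall. Both were lower in the OGT control than in any OGA library. Cyp2c55 was at 14.2 and 17.2 CPM, 23 and 17.1 CPM, and 14.5 and 5.23 CPM, and fell 2.75-fold.

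Cyp2c39, a retinoic acid hydroxylase, went against its subfamily. It was listed at 0.775 and 1.22 CPM and at 1.07 and 1.01 CPM in the OGA pairs, at 5.37 CPM in the OGT control and at 25.9 CPM in OGT-KO liver, so the groups of the 2 lines did not overlap. The rise in OGT-KO liver was 4.76-fold (log2 ratio 2.25, 1.99 to 2.56; edgeR adjusted p = 0.00109), and it no longer passed without the line term (adjusted p = 0.06772). Its closest copy, Cyp2c38, with 94.23% of coding bases identical, moved the other way: 17.5 and 23.4 CPM, 22.1 and 25.4 CPM, and 10.2 and 4.62 CPM, a log2 ratio of -1.13 that also failed without the line term (adjusted p = 0.06654). Summed, the copies were at 15.6 and 30.5 CPM in the OGT pair (log2 ratio 0.97).

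The other group of near-identical copies, Cyp2c40, Cyp2c67, Cyp2c68 and Cyp2c69, had a summed log2 ratio of -1.84 for the OGT control against the OGA control at day 28. Of the 4, edgeR's line term called Cyp2c67 alone. Cyp2c68 had -0.83 between these controls and -1.09 in OGT-KO liver. Cyp2c67 was at 157 and 187 CPM and at 237 and 177 CPM in the OGA pairs, and at 18.5 and 18.6 CPM in the OGT pair (log2 ratio 0.01 in OGT-KO liver; edgeR adjusted p = 0.9744). Cyp2c68 was at 140 and 188 CPM, 183 and 134 CPM, and 102 and 48 CPM, and fell 2.13-fold in OGT-KO liver. The Cyp2c68 call was lost without the line term and by DESeq2 (adjusted p = 0.06547 and 0.2). Cyp2c40 was at 10.2 and 26.2 CPM, 19.3 and 14.9 CPM, and 3.29 and 1.79 CPM, and Cyp2c69 at 2.86 and 10.9 CPM, 5.62 and 4.69 CPM, and 0.477 and 0.179 CPM. Neither of these low copies, both female-biased in mice, passed the test for OGT-KO (adjusted p = 0.4095 and 0.548). Their sum over the 4 copies was 125 and 68.5 CPM in the OGT pair (log2 ratio -0.86).

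Among the Cyp2a genes the results diverged. Cyp2a5, the coumarin and nicotine hydroxylase, was at 314 and 313 CPM, 328 and 800 CPM, and 1093 and 303 CPM. Its near copy Cyp2a4, a steroid hydroxylase that is higher in female than in male mice, was at 36.6 and 51.7 CPM, 38.6 and 93.5 CPM, and 19.5 and 141 CPM. In OGT-KO liver Cyp2a5 fell 3.61-fold (log2 ratio -1.85; edgeR adjusted p = 0.01588) while Cyp2a4 rose 7.24-fold (log2 ratio 2.86, 2.72 to 3.01; edgeR adjusted p = 0.0009403), a gap of 4.71 on the log2 scale between genes that differ at 23 coding bases. The Cyp2a5 call did not hold without the line term (adjusted p = 0.273) or by DESeq2 (adjusted p = 0.09466); the Cyp2a4 call held in both (adjusted p = 0.04743 and 1.902e-18). Summed, the pair was at 1113 and 444 CPM (log2 ratio -1.32). How reads that match both copies were counted is not given in the sources used here.

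Cyp2a12, a testosterone hydroxylase, was at 707 and 727 CPM, 722 and 774 CPM, and 307 and 108 CPM, and fell 2.85-fold in OGT-KO liver. Its copy Cyp2a22 (96.96% of coding bases identical) was at 4.16 and 6.44 CPM, 6.23 and 6.35 CPM, and 20.8 and 4.33 CPM. The OGT control was thus the lowest control for Cyp2a12 and the highest for Cyp2a22. Both calls in OGT-KO liver failed without the line term (adjusted p = 0.05678 and 0.3079).

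All 8 Cyp2d ratios were below 0 in OGT-KO liver, and 6 of the 8 genes fell. In the whole set 35 of 42 ratios were below 0 and 31 genes fell, where 26.6% of all genes fell. Cyp2d9, a male-biased testosterone hydroxylase, was at 1448 and 1516 CPM, 1525 and 1384 CPM, and 2402 and 584 CPM, a log2 ratio of -2.04. Cyp2d10 was at 713 and 750 CPM, 724 and 751 CPM, and 854 and 149 CPM, and Cyp2d26 at 1039 and 1058 CPM, 1116 and 1120 CPM, and 1010 and 246 CPM. Their ratios in OGT-KO liver were -2.52 and -2.04. Cyp2d22 was at 293 and 346 CPM, 316 and 354 CPM, and 376 and 84.3 CPM (log2 ratio -2.15). In each of these 4 genes the OGT-KO library was the lowest of the 6, and the OGT control was near or above the OGA libraries.

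Cyp2d40 fell from 38.3 to 1.83 CPM (log2 ratio -4.33, -4.83 to -3.98; edgeR adjusted p = 9.27e-05), with 73.3 and 62.9 CPM and 81.1 and 67.2 CPM in the OGA pairs. The remaining 3, Cyp2d11, Cyp2d12 and Cyp2d34, did not exceed 2.18 CPM in any library. Of these Cyp2d12 was called lower on 23 counts against 1, an interval of -10.16 to -2.18, and the other 2 did not pass. The 5 near-identical Cyp2d genes (Cyp2d9, Cyp2d10, Cyp2d11, Cyp2d12 and Cyp2d34) summed to -2.15.

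All 4 Cyp3a genes fell in OGT-KO liver, where 73.8% of the 42 P450 genes and 26.6% of all genes fell. The summed log2 ratio of the Cyp3a genes was -1.33, beside -2.93 for Cyp2c and -2.14 for Cyp2d. These differences were not tested. Cyp3a11, the main drug-oxidising Cyp3a enzyme of mouse liver and a PXR target, was at 7771 and 6857 CPM, 8775 and 7192 CPM, and 6015 and 2401 CPM, a 2.5-fold fall (log2 ratio -1.32; edgeR adjusted p = 0.0004366). Cyp3a25 was at 635 and 663 CPM, 660 and 602 CPM, and 601 and 206 CPM, and its copy Cyp3a59 at 59 and 57.7 CPM, 63.3 and 45.5 CPM, and 69.3 and 32 CPM. Both fell (log2 ratios -1.54 and -1.11). Cyp3a13 was at 167 and 154 CPM, 157 and 155 CPM, and 72.9 and 50.9 CPM, the smallest called change of the 42 (log2 ratio -0.52, -0.62 to -0.42; edgeR adjusted p = 0.01022), which was lost without the line term (adjusted p = 0.1481) and by DESeq2 (adjusted p = 0.06615). The closest copy of Cyp3a11 in the annotation, Cyp3a41a with 95.18% of coding bases identical, had no row.

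The other single-gene subfamilies completed the set at 10 CPM. Cyp2b10, the gene most used as a readout of CAR, was low throughout, at 8.45 and 9.66 CPM, 13.6 and 17.8 CPM, and 26 and 8.95 CPM; it fell 2.89-fold in OGT-KO liver, with the OGT-KO level inside the range of the OGA libraries, and the call was lost without the line term (adjusted p = 0.1372). Cyp2r1, a vitamin D 25-hydroxylase, was at 11.4 and 11.3 CPM, 12.5 and 12.3 CPM, and 6.28 and 0.931 CPM (log2 ratio -2.66; edgeR adjusted p = 0.0006148). Cyp2u1, a fatty acid hydroxylase that is male-biased, was at 65.6 and 68.1 CPM, 79.3 and 58.2 CPM, and 33.1 and 9.6 CPM (log2 ratio -1.78).

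Of the genes under 10 CPM, Cyp2s1 rose from 0.477 to 2.54 CPM and Cyp2g1 fell from 2.34 to 0.358 CPM in OGT-KO liver (log2 ratios 2.24 and -2.47; edgeR adjusted p = 0.02245 and 0.006279). Both calls were lost without the line term and by DESeq2. Cyp2t4 stayed between 0.953 and 1.54 CPM in all 6 libraries.

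**Figure D3:**
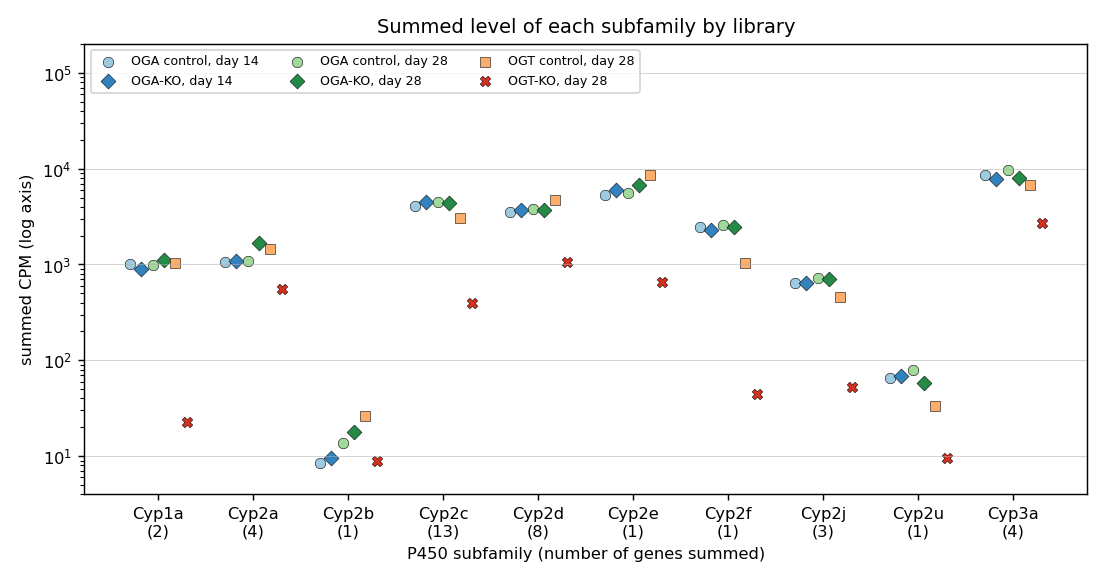
Summed CPM of each subfamily at or above 5 CPM in every library, on a log axis, with 1 point per library and the number of genes summed in brackets. The OGT-KO points lie under the OGT control in all 10 subfamilies, from 22.5 against 1038 CPM for Cyp1a to 2690 against 6758 CPM for Cyp3a.

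The composition of the set changed with the fall. Per kilobase of coding sequence, Cyp3a11 and Cyp2e1 were the 2 most abundant of the 42 in every library. In the OGA libraries Cyp3a11 made up 24.6% to 29.8% and Cyp2e1 19.5% to 23.4% of the length-scaled total. In the OGT control Cyp2e1 came first at 32.1%, with Cyp3a11 at 21.9%. In OGT-KO liver Cyp3a11 made up 43.3%, Cyp2e1 12% and Cyp2d9 10.5%. Cyp1a2 went from 3.70% in the OGT control to 0.343% and from rank 8 to rank 23.

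By known regulation, all 7 genes listed as induced through CAR or PXR (Cyp2b10, Cyp2c29, Cyp2c37, Cyp2c50, Cyp2c54, Cyp2c55 and Cyp3a11) fell in OGT-KO liver, with a median log2 ratio of -2.93. In the whole set 31 of 42 fell, with a median of -1.60, and 26.6% of all genes fell. Of the 7, Cyp2c37, Cyp2c50 and Cyp2c54 are near-identical copies, and the Cyp2b10 call was lost without the line term. Whether genes grouped by regulation differ from the other members was not tested. Both male-biased genes, Cyp2d9 and Cyp2u1, fell. Of 9 genes listed as female-biased 3 had a row, of which Cyp2a4 rose and Cyp2c40 and Cyp2c69 did not pass.

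Among the genes of the regulatory pathway, Nr1i3 (CAR) was at 204 and 282 CPM, 271 and 391 CPM, and 129 and 52.4 CPM and fell in OGT-KO liver (log2 ratio -1.30; edgeR adjusted p = 0.0005411). Nr1i2 (PXR) was at 51.9 and 51.8 CPM in the OGT pair and did not pass the test (adjusted p = 0.9883). Ahr fell from 64.6 to 36.4 CPM (log2 ratio -0.83), Rxra, the partner of CAR and PXR, fell from 643 to 300 CPM, and Nqo1, a target of AHR, rose from 5.2 to 16.5 CPM. Over the 8 receptor and AHR genes with a row, 4 fell and 2 rose, beside 26.6% and 26.1% of all genes. Without the line term 1 fell and 1 rose.

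Of 16 hepatocyte factors that act on P450 promoters, 12 fell and none rose in OGT-KO liver by edgeR, and without the line term 6 fell and none rose. The latter fit had 1419 falling and 1616 rising genes among all 12027, against 3198 and 3134 with the line term. Cebpa, encoding C/EBPα, fell from 727 to 157 CPM, Dbp from 49.1 to 8.7 CPM and Hnf4a from 815 to 417 CPM (log2 ratios -2.21, -2.49 and -0.97). Of 7 growth hormone genes with a row, 4 fell and 1 rose, with the receptor gene Ghr falling from 444 to 81.7 CPM; without the line term 2 fell and by DESeq2 3 fell, and the rise was lost in both. Of 18 genes for redox partners and haem supply, 12 fell and 1 rose (7 and 1 without the line term): Hmox1, which breaks haem down, rose from 25.4 to 152 CPM, whereas Por, the reductase that passes electrons to these P450 enzymes, was at 248 and 438 CPM and did not pass (adjusted p = 0.1325), nor did Alas1, the first enzyme of haem synthesis, at 465 and 311 CPM (adjusted p = 0.3096).

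Genes of the central lobule other than P450 genes moved with the set. Of 11 such genes 10 fell (6 without the line term), with a median log2 ratio of -2.26, among them Slc1a2 from 155 to 3.22 CPM and Rgn from 540 to 31.6 CPM, while of 10 portal genes 5 fell and 1 rose, with a median of -0.52; none of the 5 falls passed without the line term. Over all genes 26.6% fell and 26.1% rose. The difference between the central and portal lists was not tested, and Cyp2f2, the P450 gene described above as portal, had a log2 ratio of -4.54. Of 17 other phase I enzymes 12 fell and 3 rose (7 and 2 without the line term), with Adh1 falling from 2734 to 258 CPM. The part of the shift in cell markers given above in these falls was not tested.

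In OGA-KO liver most genes of the set stayed close to control at both times, but a larger share than of all genes was at least 2-fold higher. At day 14, 3 of the 42 (7.1%) were at least 2-fold higher (Cyp2c40, Cyp2c69 and Cyp2g1) and none lower. Of all genes 0.534% were higher and 0.305% lower. At day 28, 3 (7.1%) were at least 2-fold higher (Cyp2a4, Cyp2a5 and Cyp2g1) and none lower, where 1.7% and 0.869% of all genes were. Cyp2c40 and Cyp2c69 are near-identical copies, as are Cyp2a4 and Cyp2a5. The median log2 ratios were 0.15 and 0.01, against 0.00 over all genes in both cases, and 35 of 42 genes at day 14 and 37 at day 28 lay within 1.5-fold of control. Over both times edgeR called none of the 42, as 0.0249% of all genes rose and 0.00831% fell. Of the 42, 11 had an unadjusted p under 0.05 by edgeR. The share of all genes at that threshold is not given here, so the count is not read as a result. DESeq2 called 1, Cyp2a4 (log2 0.90).

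Of the 42 genes, 17 had ratios above 0 at both times and 6 below 0 at both. Another 14 (33.3%) were above 0 at day 14 and below at day 28, and 5 the reverse. The share of all genes with such signs is not given here. At day 14, 73.81% of the set was above 0 against 50.34% of all genes, and at day 28, 52.38% against 50.8%. Cyp2c37 was higher in OGA-KO liver by 0.44 at day 14 and 0.41 at day 28 on the log2 scale, Cyp2c23 by 0.28 at both, and Cyp2e1 by 0.20 and 0.25. Cyp3a11 was lower by a like amount at both times (log2 ratios -0.18 and -0.29). These intervals exclude 0 for counting error alone, and none of the 4 genes passed the test over both times (edgeR adjusted p = 0.193 to 0.3218).

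Cyp2a4 and Cyp2a5 had the highest ratios of the 42 at day 28. The 2.4-fold higher level of both in OGA-KO liver (log2 ratios 1.27 for Cyp2a4, 1.17 to 1.38, and 1.29 for Cyp2a5, 1.25 to 1.32) contrasted with day 14, where Cyp2a4 had 0.50 and Cyp2a5 -0.01. Neither passed edgeR's test over both times (adjusted p = 0.2487 and 0.4267). Cyp2g1 had ratios of 1.45 and 1.16 but did not exceed 2.04 CPM in these libraries.

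Other genes moved in the same day 28 pair. Dbp, a factor whose level follows the daily clock, was at 6.37 and 15.2 CPM, 17.7 and 156 CPM, and 49.1 and 8.7 CPM, and its relative Tef at 46 and 68.3 CPM, 48.9 and 171 CPM, and 70.5 and 44.6 CPM. The 2 libraries with the highest Dbp, OGA-KO at day 28 and the OGT control, were also the 2 with the highest Cyp2a5, whereas Cyp2a4 was lowest in the OGT control. Por was at 227 and 274 CPM and at 202 and 568 CPM in the OGA pairs (log2 ratio 1.49 at day 28), and Alas1 at 477 and 323 CPM and at 252 and 447 CPM. The OGA-KO library at day 28 also held pancreatic RNA: 11 acinar genes summed to 204 CPM, with none at 0, against 5 to 29 CPM with 8 or 9 at 0 in the other 5 libraries. The part of these shifts in the Cyp2a ratios was not tested.

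**Figure D4:**
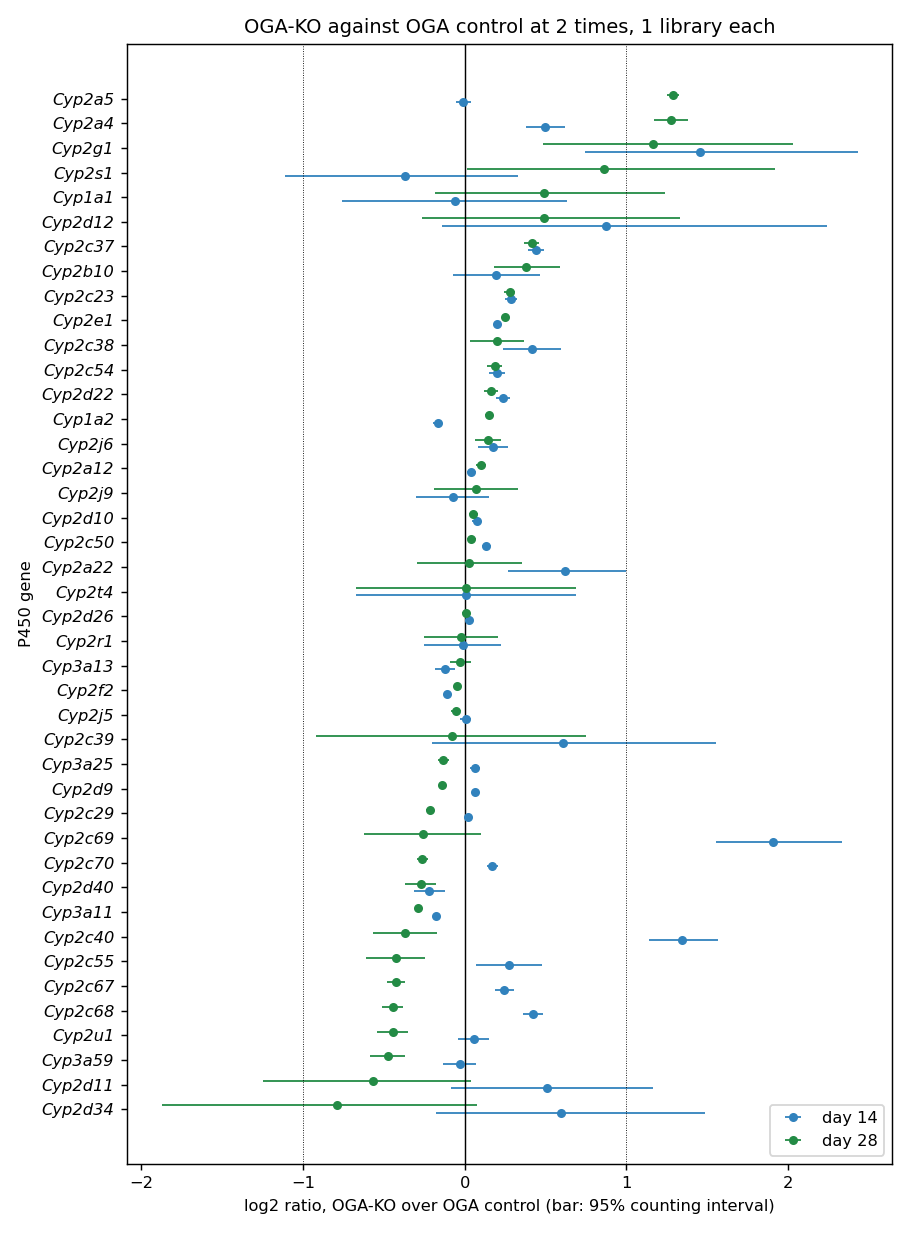
Log2 ratio of OGA-KO over OGA control for all 42 genes at day 14 (blue) and day 28 (green), with 95% counting intervals and dotted lines at a 2-fold change. Most genes lie within 1.5-fold; Cyp2a4 and Cyp2a5 stand at 1.27 and 1.29 at day 28, and Cyp2c40 and Cyp2c69 at 1.35 and 1.91 at day 14.

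The copies Cyp2c40, Cyp2c67, Cyp2c68 and Cyp2c69 were all higher in OGA-KO liver at day 14 and all lower at day 28. They were among 14 of the 42 genes with this pair of signs, which also included Cyp2c29, Cyp2c39, Cyp2c55 and Cyp2c70. Reads of one copy can match another, so the signs of the 4 copies need not be independent. Cyp2c69 had ratios of 1.91 (1.55 to 2.33) and -0.26 (-0.62 to 0.10), and Cyp2c67 had 0.25 (0.19 to 0.31) and -0.42 (-0.48 to -0.37). Summed over the 4, the OGA pairs were at 311 and 412 CPM at day 14 and at 445 and 331 CPM at day 28, log2 ratios of 0.41 and -0.43. The control itself was higher at day 28 than at day 14 by 0.52, so the 4 OGA libraries spread over more than the difference within either pair. The difference between the times was not tested.

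**Figure D5:**
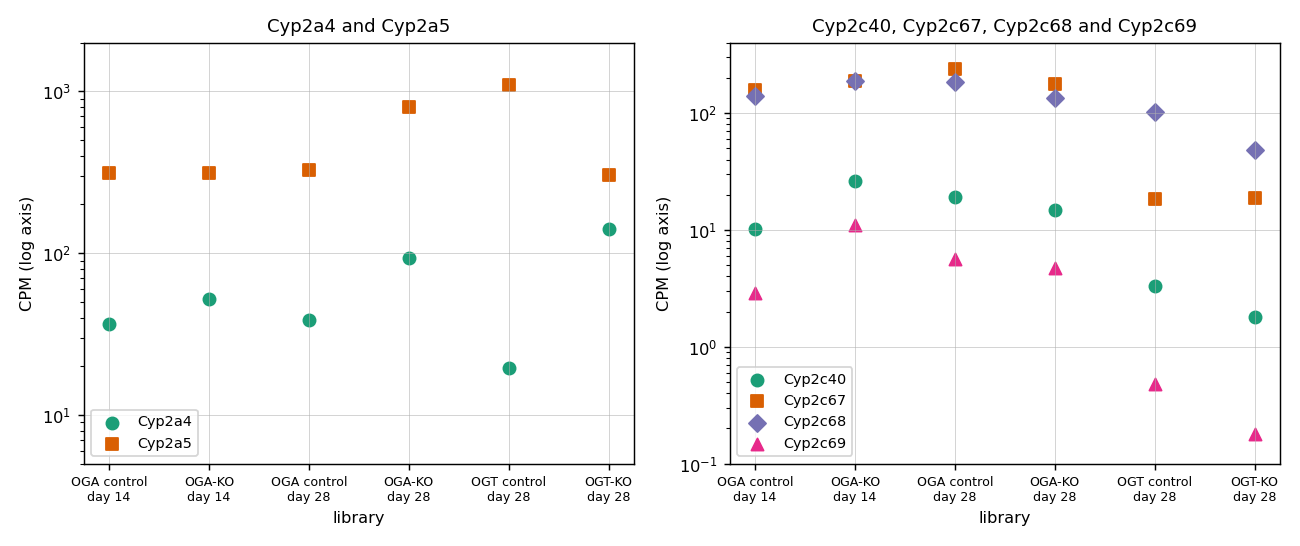
CPM on a log axis of 2 groups of near-identical copies in the 6 libraries, 1 point per gene and library. Cyp2a4 and Cyp2a5 approach each other in OGT-KO liver (141 and 303 CPM) from 19.5 and 1093 CPM in its control, and Cyp2c67 is at 18.5 and 18.6 CPM in the OGT pair against 157 to 237 CPM in the OGA libraries.

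The effects of the 2 deletions on these genes were compared in one fit. The OGT-KO effect lay below the OGA-KO effect for 30 of the 42 genes and above it for 2, Cyp2a4 and Cyp2c39, by edgeR's test of the difference; over all genes 22.7% lay below and 21.4% above. Cyp1a2 had the greatest difference among the genes over 10 CPM (-5.73 on the log2 scale; edgeR adjusted p = 0.0001772). For Cyp2a4, which was also higher in OGA-KO liver, the difference was 1.97 (edgeR adjusted p = 0.00726). This comparison takes the OGT effect at day 28 and the OGA effect over both times, and without the line term 22 below and none above were called.

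Between days 14 and 28 in control liver the differences were small but mostly in one direction. Of the 42 genes, 35 lay within 1.5-fold, and 37 (88.1%) had ratios above 0, against 49.46% of all genes. Scaled by library totals, 3 of the 42 changed direction. Cyp2s1 was at least 2-fold lower at day 28 (1.55 and 0.611 CPM). No gene of the set was at least 2-fold higher, where 0.408% of all genes were lower and 0.519% higher. The median log2 ratio was 0.15, against -0.0016 over all genes. The 2 control libraries alone allow no test. The day term of edgeR's fit takes the OGA control and OGA-KO libraries together. There none of the 42 was called (none by DESeq2), as 0.0333% of all genes rose and 0.0% fell. Of the 42, 5 had an unadjusted p under 0.05 by edgeR, again without the share of all genes.

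The 2 control lines at day 28, OGTfl/y and OGAfl/fl, differed in more of these genes. Relative to the OGA control, 16 of the 42 were lower and 8 higher in the OGT line by edgeR, where 15.4% and 13.9% of all genes were; by size 13 were at least 2-fold lower and 5 higher, against 5.72% and 4.72% of all genes. The ratios compare the 2 control libraries, while edgeR's line term sets the OGT control against the OGA control level at day 28 as fitted from all 4 OGA libraries. The median log2 ratio was -0.39, against 0.00 over all genes. Scaled by library totals, which moves the median of all genes to 0.22, the calls were 15 lower and 12 higher and 5 genes changed direction (Cyp2c29, Cyp2d11, Cyp2d26, Cyp2d34 and Cyp3a25). The line comparison shares its OGT control with the OGT-KO comparison and its OGA control with the OGA-KO and day comparisons.

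The lowest ratio between the lines was that of Cyp2c67, at 18.5 CPM in the OGT control against 237 CPM in the OGA control (log2 ratio -3.68, -3.83 to -3.54; edgeR adjusted p = 0.002796). Cyp2c69 and Cyp2c40, its copies, had -3.36 and -2.52 but did not pass by edgeR (adjusted p = 0.07181 and 0.05181), whereas DESeq2 called both (adjusted p = 0.02055 and 0.004073), and the 4 copies summed to -1.84. Cyp2j9 had -2.31 and Cyp2c54 -2.20 (adjusted p = 0.003519 and 0.001411). In the other direction Cyp2c39 had 2.25 and Cyp2a22 1.73 (adjusted p = 0.006168 for both). Cyp2a5 had 1.74 and did not pass (adjusted p = 0.05255), and Cyp2e1 and Cyp2d9 were higher by 0.62 and 0.66 (adjusted p = 0.009308 and 0.01016). Nr1i3 was lower in the OGT line (log2 ratio -1.07; adjusted p = 0.003792). Since each line is represented by its own library, a difference between lines and one between libraries cannot be told apart.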

How the data were processed

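The authors deposited a table of gene counts, whole numbers per gene and library that were not normalized. The submitters' processing notes name STAR, Subread, edgeR and the mouse build mm39; versions, strand setting and the handling of reads that match several copies are not given in the sources used here. Identifiers were turned into symbols with GENCODE M21, which gave 12019 of 12027 rows a symbol. CPM used effective library sizes by TMM. Counting intervals are exact conditional binomial (Clopper-Pearson) at 95%. edgeR 4.0.16 (R 4.3.3) fitted line, day, OGA-KO and OGT-KO after its filter on low counts; DESeq2 1.42.0, a fit without line, library totals, other prior counts and minimum levels were the alternatives. Scripts were tested on simulated data.

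Genes at 10 CPM or more in any library are named with all values, and of other lists Por, Alas1, Ahr, Nr1i2, Nr1i3 and Hnf4a always, with up to 6 more a comparison with the largest ratios at that level. Near-identical copies were joined at 90% identity of coding sequences, in place of the proteins planned. The genes of each list and the members were chosen with earlier results of these data known. The fit's p-values rest on 1 degree of freedom between libraries.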

Additional observations from a re-analysis of the deposited data

Results flagged for a closer look

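The OGA-KO ratios of Cyp2c40 pointed in opposite directions at the 2 times, with counting intervals that leave out 0 and values at least 2-fold apart: the log2 ratio was 1.35 at day 14 and -0.37 at day 28. With 1 library in each group the difference was not tested. Its near-identical copies Cyp2c67, Cyp2c68 and Cyp2c69 had the same pair of signs, as had 14 of the 42 genes in all.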

How the results depend on the processing

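Scaled by library totals, the OGT-KO median of the P450 genes was -1.27 and their summed log2 ratio -1.93, the summed ratio was -0.0196 in OGA-KO liver at day 28 and 0.0876 between days, the median between control lines was -0.17, and the summed ratio between lines reversed from -0.10 to 0.13. With DESeq2 size factors the summed ratio was 0.0295 in OGA-KO liver at day 14 and 0.13 between days. Among genes at 5 CPM or more the medians were -1.95 for OGT-KO and -0.66 between lines. The single gene past 2-fold between days became 0 with a prior count of 10 or a minimum of 5 CPM, and 2 with no minimum. DESeq2 called 1 gene for OGA-KO where edgeR called 0. The cause of these shifts was not tested. Of the calls of single genes above 10 CPM, 14 were lost and 3 gained by DESeq2, and 17 were lost without the line term; none reversed. No paired analysis was possible because each group has 1 library. The 1 library in a group, with 3 pooled mice, limits every comparison, and leaving out a replicate could not be run.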
